A study of Mus musculus with 30 samples.

Results

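Type I interferon-stimulated genes, the antiviral effector and feedback genes that cells switch on when type I interferon binds its receptor, were followed across the cell types of the mouse spleen. The 40 genes were named by symbol in a list. All 40 were found by symbol among the 32285 features of the single-cell libraries, each with 1 row, so they are 40 of 32285 measured genes.

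Droplet single-cell RNA sequencing was done on splenocytes of Smc3-WT and Smc3-cKO mice after removal of red blood cells, with 2 libraries per genotype and a 3′ kit aimed at 10000 cells a library. Smc3 encodes a core subunit of cohesin, the ring complex that holds chromatin loops, and the series title concerns cohesin and the transcription factor PU.1 in conventional dendritic cells (cDC). The labels used here give the genotype only as Smc3-WT and Smc3-cKO, and the Cre driver, the deleted part of the gene, the strain, the age of the mice of these libraries and any treatment are not given in the sources used here. Nor is it stated that a genotype's 2 libraries are 2 animals, and p-values therefore measure library-to-library spread, which may be technical. The other 26 samples of the series were not analysed here.

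Type I interferons (Ifnb1 and the Ifna genes) bind the receptor pair Ifnar1 and Ifnar2, and the kinases Jak1 and Tyk2 then pass the signal on. Stat2 and Irf9 are subunits of the resulting factor ISGF3, which binds interferon-stimulated response elements (ISRE) in the promoters of target genes. The targets include sensors of viral nucleic acid, enzymes that degrade or modify RNA, and feedback regulators such as Usp18. Splenic DC and monocytes carry a low tonic output of these genes without infection, and plasmacytoid DC (pDC) are known as strong producers of type I interferon.

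Promoters show what the list shares beyond its name. RefSeq promoters (GRCm38.p6, 250 bases before to 50 after a start site) were at hand for 32 of the 40 genes. The ISRE letters, GAAA followed by 2 bases of any kind and GAAA again, searched on both strands, occurred in at least 1 promoter of 18 of those 32, or 56.2%, against 3.99% of the 27025 genes with a promoter in the table and 3.44% of all 32851 promoters. The GAS letters TTCNNNGAA, the gamma-activated element, occurred in 4 of 32, or 12.5%, against 9.55% of genes. A match is a description of these letters and not a shown binding site. The 18 genes were Ifi203, Ifi205, Ifi213, Ifih1, Isg15, Oas1a, Oas1g, Oas3, Trim30a, Stat2, Slfn5, Slfn8, Rsad2, Phf11b, Ifit1, Ifit1bl1, Ifit3 and Ifit3b. The windows below are from genes whose levels are described in the results, written 5′ to 3′ on the gene's strand, with the ISRE letters (or their reverse complement) in capitals. Isg15 holds 3 overlapping matches and Ifit1 holds 2. The Slfn5 window is cut to 30 bases because its start site lies inside the gene's RefSeq span.
Isg15 (chr4:156200862-156200921, minus strand): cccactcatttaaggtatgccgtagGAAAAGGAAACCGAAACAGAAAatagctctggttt
Ifit1 (chr19:34640760-34640819, plus strand): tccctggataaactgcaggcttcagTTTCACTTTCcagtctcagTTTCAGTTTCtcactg
Rsad2 (chr12:26456538-26456597, minus strand): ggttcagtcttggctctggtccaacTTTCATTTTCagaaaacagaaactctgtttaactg
Oas3 (chr5:120777700-120777759, minus strand): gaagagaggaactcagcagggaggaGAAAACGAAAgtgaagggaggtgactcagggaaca
Trim30a (chr7:104465195-104465254, minus strand): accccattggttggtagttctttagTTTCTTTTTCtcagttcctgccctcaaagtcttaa
Ifi205 (chr1:174031855-174031914, minus strand): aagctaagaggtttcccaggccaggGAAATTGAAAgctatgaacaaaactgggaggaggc
Slfn5 (chr11:82951937-82951966, plus strand): ccttcaaagtGAAAAAGAAAaaaaaaaaag

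The libraries held 40367056 to 51299056 UMIs (unique molecular identifiers, 1 per captured RNA molecule) in 9074 to 16096 barcodes, and 6850 to 13149 cells per library were kept. Smc3-cKO replicate 1 stood apart by depth, with a median of 4211 UMIs per kept cell against 2734 to 2783 in the other 3 libraries, and had the fewest cells. Over all barcodes the median share of UMIs from mitochondrial genes differed too. It was 7.51% and 3.25% in Smc3-WT replicates 1 and 2 against 5.64% and 3.97% in Smc3-cKO. Of 53644 barcodes, 282 barcode sequences occurred in 2 or more libraries. Cells were assigned to classes by marker gates, and the 12 classes named for 1 cell type with at least 20 cells in every library were tested. T-like cells of neither subset and cells outside every gate were not tested. The gates used the markers, so marker levels describe the classes and do not test their names. Xcr1 reached 448 CPM (UMIs of a gene scaled to a fixed total per library and class) in the cDC1-like class and 0 in the cDC2-like class, Cd209a 515 CPM in cDC2-like cells, Siglech 2351 CPM in pDC-like cells, Ccr2 1431 CPM in classical and Ace 601 CPM in nonclassical monocyte-like cells. The DC and monocyte classes are small, with 28 to 56 cells per library for cDC1-like, 41 to 114 for cDC2-like, 47 to 120 for pDC-like, 45 to 286 for classical and 94 to 250 for nonclassical monocyte-like cells. B-like cells numbered 3267 to 7433. The kit counts 1 tag at the 3′ end of a molecule, and UMI levels of different genes were compared without scaling to length. Whether these levels depend on gene length was not tested. Values of the 4 libraries are written as Smc3-WT replicates 1 and 2 against Smc3-cKO replicates 1 and 2.

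Myeloid cells carried the highest levels of most members. By the mean over the 4 libraries of unscaled CPM, 14 of the 40 genes were highest in neutrophil-like cells and 12 in classical monocyte-like cells, with 3 each in pDC-like and cDC2-like cells, 2 each in cDC1-like and CD8 T-like cells, and 1 each in B-like, CD4 T-like, nonclassical monocyte-like and red pulp macrophage-like cells. These counts were not made over all genes, so they describe the list only, as does the next. For 3 genes all 4 libraries of the highest class lay above all 4 of the next class. Ifi205, a member of the PYHIN family of DNA-binding proteins, was at 343 ± 88.7 CPM (SD, n = 4) in cDC1-like cells and 35.4 CPM in the next class, classical monocyte-like cells. Ifi44, an antiviral effector gene, was at 69.2 ± 30.6 CPM (SD, n = 4) in pDC-like cells and 15.2 CPM in cDC1-like cells. Slfn5 of the Schlafen family was at 516 ± 180.5 CPM (SD, n = 4) in classical monocyte-like cells and 223 CPM in cDC2-like cells.

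The other 37 genes had a highest class that overlapped the next. Trim30a, which encodes a TRIM-family ubiquitin ligase, was among the 3 highest members in each of the 7 DC, monocyte, B and CD4 T classes and reached 674 ± 116 CPM (SD, n = 4) in pDC-like cells. Ifi27l2a, a small interferon-induced membrane protein gene, had the highest class mean of any member, 863 CPM in classical monocyte-like cells, and the widest spread there (SD 685, n = 4). At the low end, Oas1g had a class mean of 5.97 CPM at most, in neutrophil-like cells, and was the 1 member that passed the filter on low counts in no class. The other 39 passed in at least 1 class, and Ifih1, Slfn2, Slfn5, Trim30a, Herc6, Parp14, Samd9l and Ifi27l2a passed in all 12.

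No member passed the test between genotypes in any class. With the quasi-likelihood test of edgeR, Benjamini-Hochberg adjusted over all genes of a class, 0 of 323 member-by-class tests had an adjusted p under 0.05, against 0.0389% of all 95162 gene-by-class tests, and the smallest adjusted p over the 12 classes was 0.373. DESeq2 also called 0 of 323. With 1 library left out, the lone library of a genotype is assumed to vary like the pair of the other. The calls were then 9 of 360 without Smc3-WT replicate 1 (all genes 0.415%) and 13 of 373 without Smc3-WT replicate 2 (all genes 1.68%). They were 1 of 330 without Smc3-cKO replicate 1 (all genes 0.292%) and 1 of 361 without Smc3-cKO replicate 2 (all genes 0.219%). The estimates lay mostly on one side: 263 of 323 log2 changes were above 0 (higher in Smc3-cKO), or 81.4%, against 50.8% of all gene-by-class tests, and the median was 0.33. At an unadjusted p under 0.05 there were 46, of which 44 were higher in Smc3-cKO, against 1.19% of all tests. Both Smc3-cKO libraries lay above both Smc3-WT libraries in 103 tests, against 13.4% of all tests, and both lay below in 20, against 13.9%. By class, the members with a log2 change above 0 were 13 of 15 in cDC1-like cells (all genes 50.2%), 18 of 24 in cDC2-like (52.3%), 18 of 20 in pDC-like (47.6%), 29 of 33 in classical monocyte-like (50.7%) and 27 of 27 in nonclassical monocyte-like cells (50%). They were 19 of 19 in neutrophil-like (52.7%), 8 of 21 in red pulp macrophage-like (49.3%), 13 of 21 in NK-like (52.2%), 31 of 37 in CD4 T-like (49.5%), 27 of 33 in CD8 T-like (52.4%), 33 of 39 in B-like (49.9%) and 27 of 34 in marginal zone B-like cells (53.0%). When cDC1-like, cDC2-like and mature cDC-like cells were pooled, 0 of 31 members passed (all genes 0.0%), 27 had a log2 change above 0 (49.0%) and 15 had both Smc3-cKO libraries above (16.4%). The smallest adjusted p in this pool was that of Oas3, named after its values were seen, at 3.16 and 3.61 against 33.6 and 22.2 TMM-scaled CPM (2 and 3 against 22 and 20 UMIs), a log2 change of 2.95 (SE 0.59, edgeR adjusted p = 0.152). The pool holds different mixtures, with 49 and 28 against 13 and 10 mature cDC-like cells and 41 and 98 against 47 and 114 cDC2-like cells, and the part of that in its values was not tested. These counts describe the list, and the 323 tests share 4 libraries and are not independent of each other.

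**Figure D1:**
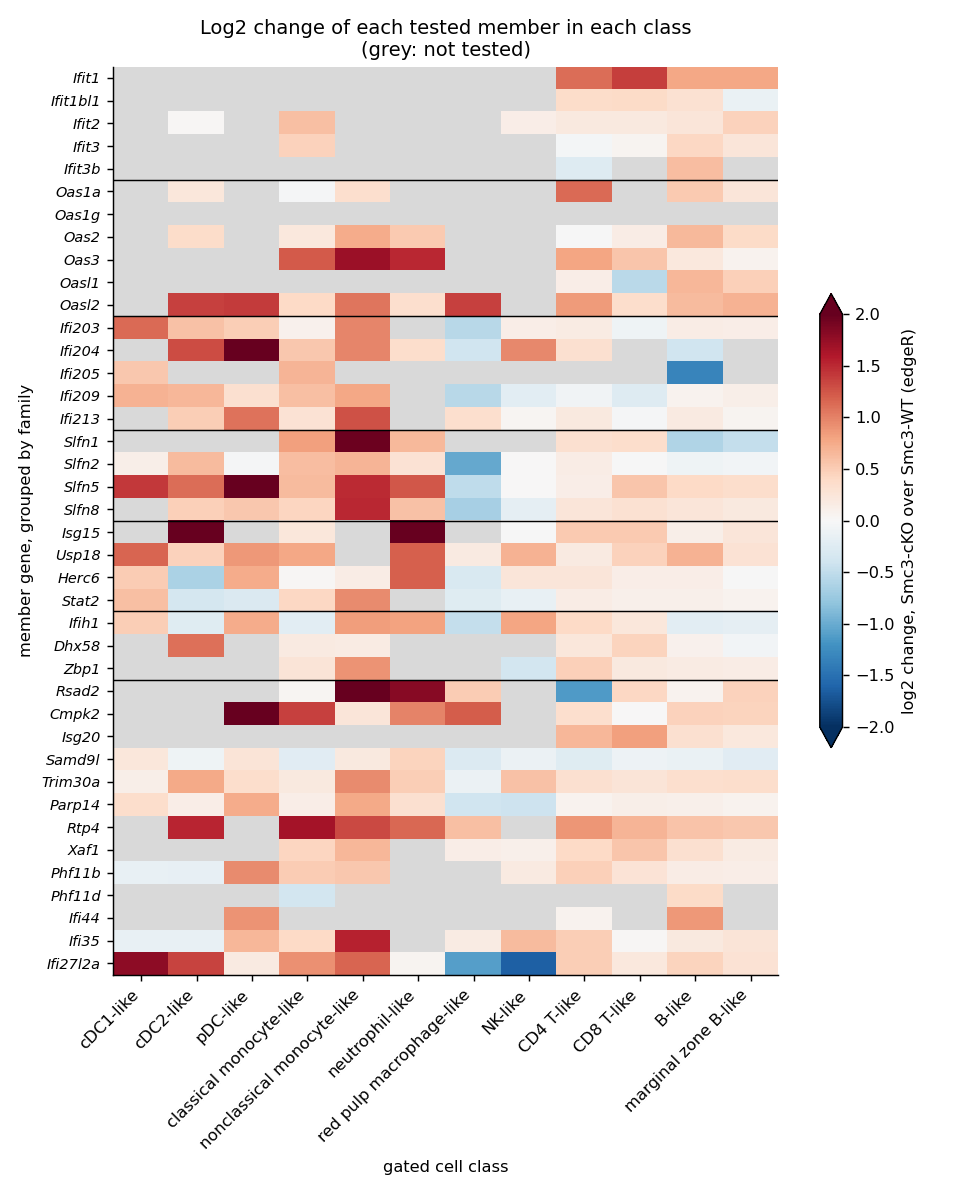
Heat map of the fitted log2 change (Smc3-cKO over Smc3-WT, edgeR) of each member gene (rows, grouped by family) in each gated class (columns), with red higher in Smc3-cKO, blue lower and grey not tested. Red fills all 27 tested cells of the nonclassical monocyte-like column and all 19 of the neutrophil-like column, and blue is most frequent in the red pulp macrophage-like column, where 8 of 21 are above 0.

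One library weighed heavily on these estimates. In B-like cells Smc3-cKO replicate 1 had the highest level of the 4 libraries for 34 of 39 members, against 22.3% of all genes tested there. It was highest for 28 of 33 in classical monocyte-like cells (all genes 21.9%), 23 of 27 in nonclassical monocyte-like cells (21.0%), 18 of 24 in cDC2-like cells (27.1%) and 26 of 37 in CD4 T-like cells (23.4%). In pDC-like cells the 2 Smc3-cKO libraries shared the top, with 9 members each of 20 (all genes 18.5% and 22.5%), and in neutrophil-like cells replicate 1 was highest for 10 and replicate 2 for 8 of 19 (20.1% and 31.2%). Without Smc3-cKO replicate 1, 168 of 330 estimates were above 0 over the 12 classes and the median was 0.01. Without Smc3-cKO replicate 2 it was 309 of 361, with a median of 0.59. This library is also the deepest, as given above, and the part of its depth in these values was not tested.

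The fit without that library tests a slightly different set of members, so its counts stand beside those of all 4 libraries and no test compares classes. In nonclassical monocyte-like cells 24 of 27 members were above 0 with a median of 0.49, in neutrophil-like cells 18 of 21 with 0.50, in pDC-like cells 19 of 21 with 0.62 and in cDC1-like cells 11 of 15 with 0.50. In cDC2-like cells it was 14 of 26 with 0.13, in CD4 T-like cells 25 of 37 with 0.13 and in CD8 T-like cells 21 of 35 with 0.05. Medians below 0 were those of B-like cells (4 of 39, -0.24), marginal zone B-like cells (11 of 37, -0.25), classical monocyte-like cells (9 of 31, -0.26), NK-like cells (12 of 24, -0.03) and red pulp macrophage-like cells (0 of 17, -1.20). The last rests on 29 cells and 92 member UMIs of Smc3-cKO replicate 2, the lowest of the 4 libraries for 36.8% of all genes there. The medians over all genes in these fits ran from -0.08 in red pulp macrophage-like to 0.001 in cDC2-like cells. With all 4 libraries the red pulp macrophage-like median was -0.28 and the other 11 were above 0, from 0.04 in NK-like to 0.94 in nonclassical monocyte-like cells.

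**Figure D2:**
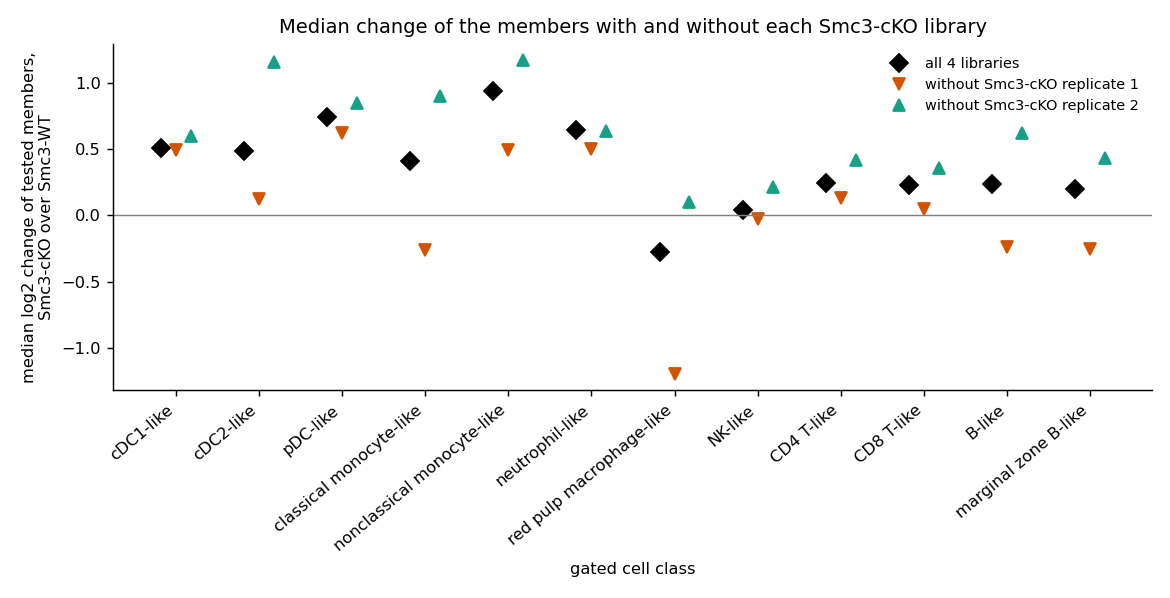
Median log2 change (Smc3-cKO over Smc3-WT) of the tested members in each gated class, with all 4 libraries (black diamonds), without Smc3-cKO replicate 1 (orange) and without Smc3-cKO replicate 2 (green). The medians of cDC1-like, cDC2-like, pDC-like, nonclassical monocyte-like, neutrophil-like, CD4 T-like and CD8 T-like cells are above 0 in all 3, and those of classical monocyte-like, NK-like, B-like and marginal zone B-like cells are below 0 without Smc3-cKO replicate 1, as is the red pulp macrophage-like median, which is also below 0 with all 4 libraries.

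The summed level of all 40 members, as CPM of the class without further scaling, was compared library by library. In nonclassical monocyte-like cells it was 1799 and 2281 against 4627 and 3138 CPM, and in pDC-like cells 2371 and 1973 against 3412 and 3191 CPM. In neutrophil-like cells it was 3060 and 2193 against 3779 and 4167 CPM, resting on 253 member UMIs in Smc3-WT replicate 2. In all 3 classes both Smc3-cKO libraries lay above both Smc3-WT libraries, and this was also so in cDC1-like cells (1572 and 1731 against 3167 and 2157 CPM), in cDC2-like cells (2190 and 2244 against 4431 and 2498 CPM) and in CD4 T-like cells (2354 and 2528 against 3242 and 2597 CPM). In classical monocyte-like cells the sum was 4325 and 5197 against 8722 and 4376 CPM, and in B-like cells 2291 and 2277 against 3195 and 2049 CPM, so that replicate 1 was above both Smc3-WT libraries and replicate 2 was not. Red pulp macrophage-like cells had 2634 and 2340 against 2686 and 1166 CPM, where the lowest value rests on 29 cells and 92 member UMIs.

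**Figure D3:**
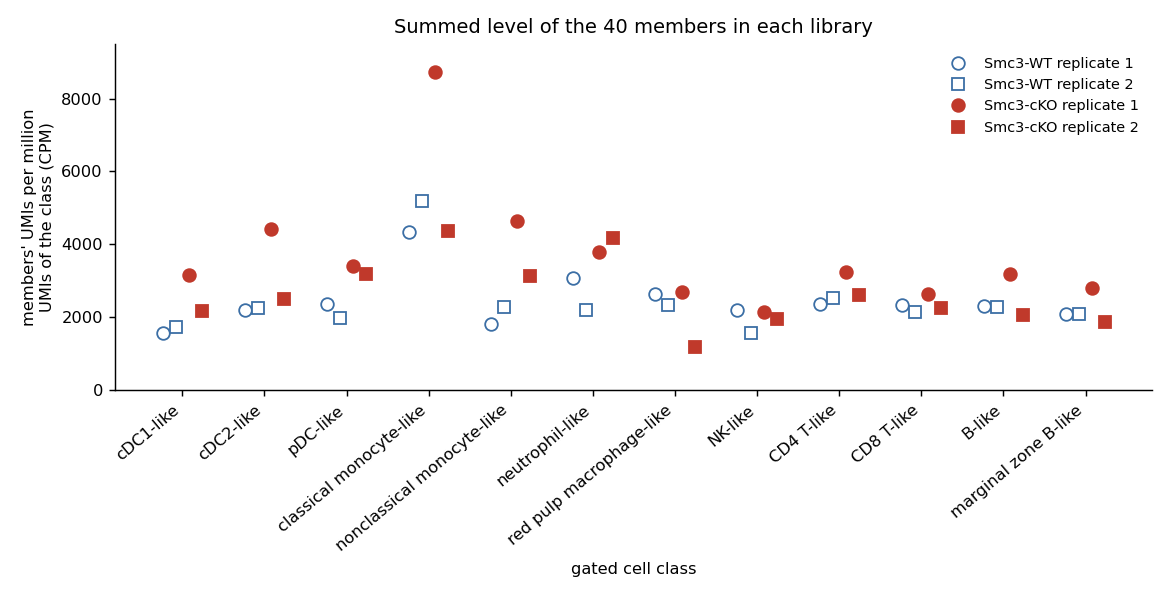
Summed level of the 40 members (CPM, vertical axis) in each gated class, with 1 symbol per library (open blue, Smc3-WT; filled red, Smc3-cKO; circles, replicate 1; squares, replicate 2). The highest point is Smc3-cKO replicate 1 in classical monocyte-like cells at 8722 CPM, far from Smc3-cKO replicate 2 at 4376 CPM.

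The ISG15 system comes first among the targets. Isg15 encodes a ubiquitin-like modifier, Herc6 the mouse ligase that attaches it, Usp18 the protease that removes it and dampens the receptor, and Stat2 a subunit of ISGF3. Isg15 was the member with the largest estimate in cDC2-like cells, at 21.1 and 0 against 29.8 and 34.5 TMM-scaled CPM (4 and 0 against 9 and 21 UMIs; TMM is a scaling between libraries), a log2 change of 2.16 (SE 1.02, edgeR adjusted p = 0.748). Both Smc3-cKO libraries were above both Smc3-WT libraries, as for 11 of 24 members in this class and 18.6% of all genes there. Herc6 had the lowest estimate in the same class, at 211 and 146 against 129 and 98.6 CPM, with both Smc3-cKO libraries below. In neutrophil-like cells Isg15 stood at 15.1 and 0 against 40.5 and 134 CPM, a log2 change of 2.83 (SE 0.90, edgeR adjusted p = 0.9999), and was chosen for mention after its values were seen. Stat2 had the lowest estimate in pDC-like cells, -0.29, at 285 and 170 against 182 and 183 CPM, where the groups overlapped. Usp18 was tested in 11 classes and its estimates ran from 0.18 to 1.20, all above 0.

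The IFIT genes encode proteins that bind the 5′ ends of foreign RNA. They were low, and most did not pass the filter in the myeloid classes. Ifit1 was tested in 4 lymphoid classes only, and in CD4 T-like cells it stood at 13.1 and 14.4 against 34.0 and 26.4 CPM (27 and 63 against 81 and 125 UMIs), a log2 change of 1.11 (SE 0.27, edgeR adjusted p = 0.9997). In CD8 T-like cells it was 9.56 and 8.20 against 24.5 and 21.6 CPM, a log2 change of 1.38 (SE 0.32). The Smc3-cKO libraries lay above in both classes, as did 13 of 37 members in CD4 T-like cells against 11.8% of all genes, and 11 of 33 in CD8 T-like cells against 12.3%. Ifit1 in T-like cells was named after its values were seen. The other 4 IFIT genes had estimates between -0.26 and 0.62 in every class tested. Ifit3 and Ifit3b are near-identical copies whose reads the counting could split.

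The OAS genes encode enzymes, or relatives of them, that sense double-stranded RNA and make the messenger that activates RNase L. Of their 35 tests, 32 had a log2 change above 0 and 13 had both Smc3-cKO libraries above, where all gene-by-class tests gave 50.8% and 13.4%. Oas1a had the largest estimate in CD4 T-like cells, at 2.42 and 2.97 against 6.30 and 5.92 CPM, a log2 change of 1.13 (SE 0.46, edgeR adjusted p = 0.9997). The genotypes did not overlap, at low counts of 5 and 13 against 15 and 28 UMIs. Oas1a and Oas1g are close copies, so their separate counts are uncertain. The next 2 genes were named after their values were seen. Oas3 in neutrophil-like cells stood at 54.5 and 60.2 against 172 and 148 CPM, a log2 change of 1.5 (SE 0.44), among 14 of 19 members with both Smc3-cKO libraries above there, against 13.9% of all genes. Oasl2 in pDC-like cells stood at 33.6 and 32.5 against 76.8 and 98.6 CPM, a log2 change of 1.39 (SE 0.45), and was above 0 in all 10 classes where it was tested.

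The nucleic acid sensors are Ifih1 (MDA5) and Dhx58 (LGP2), which bind viral double-stranded RNA in the cytosol, and Zbp1, which binds left-handed nucleic acid. Their log2 changes were above 0 in 19 of 26 tests (all genes 50.8%) and ran from -0.48 to 1.11. Ifih1 was tested in all 12 classes. Both Smc3-cKO libraries were above for Ifih1 in 6 of them and below in 2, the red pulp macrophage-like and cDC2-like classes. The shares of all gene-by-class tests were 13.4% above and 13.9% below.

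PYHIN proteins bind DNA through a HIN domain, and members of the family sense it. Their log2 changes were above 0 in 34 of 44 tests (all genes 50.8%), in all 3 of cDC1-like, all 4 of cDC2-like and pDC-like, and all 5 of classical monocyte-like cells, but in 0 of 3 in CD8 T-like cells. Ifi205 in cDC1-like cells, where its level is highest, stood at 279 and 332 against 473 and 411 CPM, a log2 change of 0.53 (SE 0.41, edgeR adjusted p = 0.999). Both Smc3-cKO libraries were above, as for 11 of 15 members in this class, against 13.8% of all genes. In B-like cells Ifi205 was nearly absent, at 1.69 and 1.13 against 1.04 and 0.111 CPM, and had the lowest estimate of the class, -1.33 (SE 0.94). Ifi203 was the highest member in B-like cells, at 357 and 373 against 439 and 365 CPM, and there the groups overlapped. In CD4 T-like cells it stood at 284 and 290 against 344 and 302 CPM, and in pDC-like cells at 380 and 207 against 422 and 389 CPM, without overlap in either. Ifi209 in B-like cells stood at 279 and 342 against 351 and 300 CPM, with overlap. The PYHIN genes lie in a cluster of similar sequences, which the counting could split.

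Schlafen genes encode regulators of RNA and of cell growth. Slfn5 had both Smc3-cKO libraries above in 7 of 12 classes and below in 1 (13.4% and 13.9% of all gene-by-class tests), and a log2 change above 0 in 11. Its adjusted p in cDC2-like cells was the smallest of any member over the 12 classes, at 111 and 181 against 371 and 288 CPM, a log2 change of 1.12 (SE 0.33, edgeR adjusted p = 0.373). In cDC1-like cells it stood at 72.9 and 112 against 319 and 172 CPM, a log2 change of 1.42 (SE 0.47, edgeR adjusted p = 0.642). Classical monocyte-like cells, where it is most abundant, had 439 and 403 against 825 and 474 CPM. In each of these 3 classes the lower Smc3-cKO library was above the higher Smc3-WT library. Its values in pDC-like cells, named after they were seen, were 44.7 and 45 against 195 and 211 CPM, a log2 change of 2.17 (SE 0.36, edgeR adjusted p = 0.501), with close agreement within each genotype. Red pulp macrophage-like cells went the other way, at 140 and 136 against 127 and 25.8 CPM, the last from 2 UMIs. Slfn2 in nonclassical monocyte-like cells stood at 162 and 231 against 363 and 273 CPM, a log2 change of 0.69 (SE 0.33). Slfn1 in that class, named after its values were seen, stood at 18.8 and 37.7 against 109 and 123 CPM, a log2 change of 1.96 (SE 0.41, edgeR adjusted p = 0.379). All 4 Schlafen genes had both Smc3-cKO libraries above in nonclassical monocyte-like cells, among 17 of 27 members, against 16.5% of all genes.

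**Figure D4:**
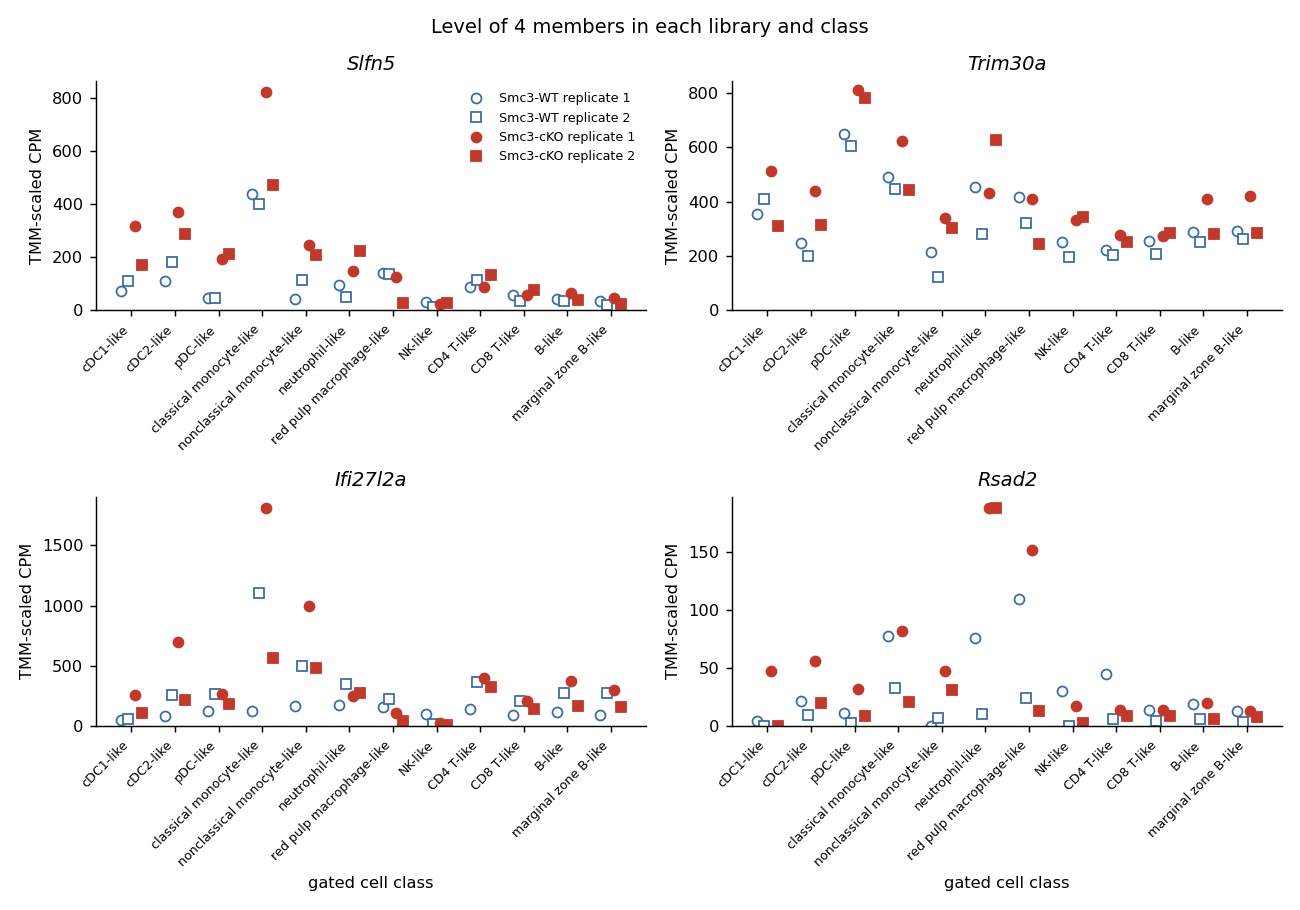
TMM-scaled CPM (vertical axes) of Slfn5, Trim30a, Ifi27l2a and Rsad2 in each gated class, 1 symbol per library (open blue, Smc3-WT; filled red, Smc3-cKO; circles, replicate 1; squares, replicate 2). Slfn5 in pDC-like cells shows both Smc3-cKO libraries (195 and 211 CPM) apart from both Smc3-WT libraries (44.7 and 45 CPM), whereas Ifi27l2a in classical monocyte-like cells spans 127 to 1813 CPM with overlap.

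Trim30a and Ifi27l2a were the most abundant of the other effectors. Trim30a stood in pDC-like cells at 649 and 604 against 809 and 780 CPM, a log2 change of 0.34 (SE 0.36), without overlap, as for 13 of 20 members in this class, against 12.2% of all genes. In cDC2-like cells it was 248 and 200 against 437 and 314 CPM, in nonclassical monocyte-like cells 215 and 123 against 341 and 302 CPM, and in CD4 T-like cells 220 and 204 against 277 and 251 CPM, each without overlap. In cDC1-like cells (356 and 408 against 514 and 311 CPM), classical monocyte-like cells (489 and 446 against 622 and 442 CPM) and B-like cells (290 and 253 against 409 and 279 CPM) the groups overlapped.

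Ifi27l2a varied between libraries of 1 genotype as much as between genotypes. In classical monocyte-like cells it stood at 127 and 1106 against 1813 and 567 CPM, in nonclassical monocyte-like cells at 162 and 495 against 999.6 and 485 CPM, and in cDC2-like cells at 79.1 and 253 against 699 and 214 CPM. Smc3-WT replicate 1 was lowest in each of these classes and Smc3-cKO replicate 1 highest. It overlapped too in CD4 T-like cells (138 and 367 against 394 and 320 CPM) and pDC-like cells (123 and 262 against 263 and 183 CPM). Its lowest estimate, -1.63, was in NK-like cells, where the groups overlapped. The genotypes did not overlap in 2 of 12 classes, in opposite directions. Over all gene-by-class tests, both Smc3-cKO libraries lay above in 13.4% and below in 13.9%. In red pulp macrophage-like cells, named after their values were seen, it stood at 156 and 224 against 105 and 38.7 CPM (the last from 3 UMIs), a log2 change of -1.10 (SE 0.43, edgeR adjusted p = 0.492). In cDC1-like cells it had the largest estimate of the class, at 47.2 and 60.1 against 257 and 111 CPM, a log2 change of 1.79 (SE 0.50, edgeR adjusted p = 0.399).

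Rsad2 encodes viperin, which makes a chain-terminating nucleotide, and its neighbour Cmpk2 encodes a mitochondrial nucleotide kinase. Rsad2 had the largest estimate in nonclassical monocyte-like cells, at 0 and 7.07 against 47.0 and 30.8 CPM (0 and 3 against 43 and 16 UMIs), a log2 change of 3.15 (SE 0.77, edgeR adjusted p = 0.643). The genotypes did not overlap. In CD4 T-like cells it had the lowest estimate, -1.13 (SE 0.87), at 45.1 and 5.72 against 13.4 and 8.87 CPM, where Smc3-WT replicate 1 alone was high. That library also had the most RNA of erythroid markers in this class, as given with the marker lists. Cmpk2 had the largest estimate in pDC-like cells, at 11.2 and 2.50 against 29.5 and 30.1 CPM (2 and 1 against 25 and 11 UMIs), a log2 change of 2.39 (SE 0.87, edgeR adjusted p = 0.9999). Rtp4 had it in classical monocyte-like cells, at 35.4 and 26.4 against 142 and 45.2 CPM, a log2 change of 1.66 (SE 0.67), and was above 0 in all 9 classes tested. There 4 of 33 members had both Smc3-cKO libraries above, against 15.6% of all genes.

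The remaining named values are those of Phf11d, Phf11b and Ifi44. Phf11d had the lowest estimate in classical monocyte-like cells, at 21.2 and 19.8 against 23.1 and 8.10 CPM, and Phf11b in cDC1-like cells, at 85.8 and 104 against 125 and 38.8 CPM, both with overlap. Ifi44 had the largest estimate in B-like cells, at 1.15 and 0.197 against 2.08 and 0.390 CPM, also with overlap. In B-like cells 1 of 39 members had both Smc3-cKO libraries above, against 9.99% of all genes. Samd9l, at a mean of 239 CPM in B-like cells, was above 0 in 4 of 12 classes (all gene-by-class tests 50.8%). Both Smc3-cKO libraries lay below in 5 classes and above in 2 (13.9% and 13.4% of all tests).

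Summed markers of some other cell types did not overlap between genotypes in several classes, and their part in these values was not tested. Only such sums are given in this paragraph, and many others overlapped. For single genes, both Smc3-cKO libraries lay above in 13.4% and below in 13.9% of all gene-by-class tests. In pDC-like cells the 10 B-cell markers summed to 771 and 440 against 155 and 68.5 CPM, with 3 of the 10 at 0 in Smc3-cKO replicate 2 and none at 0 in the other libraries. In nonclassical monocyte-like cells the 8 classical monocyte markers summed to 485 and 630 against 683 and 1789 CPM, with none at 0 in any library. In cDC2-like cells these 8 summed to 563 and 291 against 845 and 725 CPM, with 3 and 1 against 3 and 2 at 0. The 9 cDC1 markers summed there to 1963 and 1951 against 851 and 1079 CPM, with 3 and 2 against 3 and 2 at 0. Single genes carried much of both sums. With the libraries pooled, Ccr2 was at 397 CPM and Wdfy4 at 1151 CPM in cDC2-like cells, while Xcr1 and Gcsam were at 0. Wdfy4 was also at 789 CPM in B-like cells. In cDC1-like cells the 10 pDC markers summed to 558 and 608 against 620 and 1872 CPM, the 8 classical monocyte markers to 186 and 217 against 412 and 487 CPM, and the 10 B-cell markers to 426 and 227 against 93.6 and 57.0 CPM. In neutrophil-like cells the 9 nonclassical monocyte markers summed to 1439 and 1482 against 1881 and 1986 CPM. In classical monocyte-like cells the 10 neutrophil markers summed to 411 and 351 against 529 and 575 CPM, and the 10 B-cell markers to 807 and 100.4 against 64.8 and 50.7 CPM.

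Erythroid markers followed the replicate number in place of the genotype. The 8 markers summed to 4721 and 206 against 1747 and 106 CPM in B-like cells, to 4416 and 157 against 1627 and 15.8 CPM in CD4 T-like cells and to 4477 and 729 against 2113 and 83.3 CPM in nonclassical monocyte-like cells. In each of the 12 classes replicate 1 of a genotype was above its replicate 2. In erythroid-gated cells Rsad2 was the highest member, with 50.02% of the members' UMIs in Smc3-WT replicate 1 and 34.0% in Smc3-cKO replicate 1. The part of this RNA in the members' values was not tested.

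The genes upstream of the targets gave no call either. Of the listed ligands, 0 of 10 passed the filter on low counts in any class, and Ifnb1 had 0 and 0 against 0 and 1 UMIs over all kept cells. Over all 38 listed pathway genes that were found, 0 of 263 tests passed. A log2 change above 0 was found in 155 of 263 (all gene-by-class tests 50.8%), and in 47 of 95 for sensors and adaptors. At an unadjusted p under 0.05 in edgeR, 7 were higher and 2 lower in Smc3-cKO, where 1.19% of all tests were higher. The classes given for the next genes were not fixed beforehand. Irf7, which drives interferon production, stood in cDC2-like cells at 5.27 and 9.30 against 66.3 and 27.9 CPM, a log2 change of 2.43 (SE 0.74, edgeR adjusted p = 0.404), and in nonclassical monocyte-like cells at 7.53 and 2.36 against 73.2 and 28.8 CPM, a log2 change of 3.52 (SE 0.78, edgeR adjusted p = 0.461). In both classes both Smc3-cKO libraries lay above both Smc3-WT libraries, as for 18.6% and 16.5% of all genes there. Irf9 in cDC2-like cells stood at 42.2 and 51.1 against 103 and 90.4 CPM, without overlap. The receptor genes lay the other way in pDC-like cells. Ifnar1 stood at 224 and 190 against 118 and 134 CPM, and Ifnar2 at 548 and 485 against 451 and 296 CPM. Both Smc3-cKO libraries lay below for each, as for 1003 of 6550 genes tested in that class. Values of the receptor genes in the other classes are not given here.

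Whether the genotype effect differed between classes was tested for 4 pairs. For cDC2-like against B-like cells 1 of 39 members passed, against 1.02% of all genes. That member was Slfn1, with a difference in log2 change of 3.04 (SE 0.87, edgeR adjusted p = 0.0449). It stood at 10.5 and 6.97 against 89.4 and 23.0 CPM in cDC2-like cells (2 and 3 against 27 and 14 UMIs) and at 14.5 and 4.33 against 9.93 and 2.56 CPM in B-like cells. The edgeR adjusted p of this difference was 0.771 when replicate 1 of Smc3-WT was left out, and 0.481 and 0.231 when replicate 1 or replicate 2 of Smc3-cKO was. For cDC1-like against cDC2-like cells 0 of 23 passed (all genes 0.281%). For classical against nonclassical monocyte-like cells it was 0 of 34 (all genes 0.0266%), and for CD4 T-like against B-like cells 0 of 39 (0.0%), all in edgeR.

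Single cells with a broad response were rare. A cell was counted as interferon-high when it held UMIs of at least 3 of 9 core members (Ifit1, Ifit2, Ifit3, Isg15, Rsad2, Usp18, Cmpk2, Ifi44 and Oasl1) after thinning to 1000 UMIs, which left out 587, 788, 293 and 255 shallower cells. The share was 0.304% (35 of 11513 cells) and 0.162% (20 of 12361) in Smc3-WT against 0.946% (62 of 6557) and 0.418% (52 of 12449) in Smc3-cKO. Both Smc3-cKO libraries were above, and with 2 libraries a genotype no exact permutation test can reach 0.05. Erythroid-gated cells made up 8, 2, 19 and 0 of these high cells, from 627, 20, 205 and 4 such cells in the 4 libraries. Without them the shares were 0.248% and 0.146% against 0.677% and 0.418%, an alternative chosen after seeing the data. Without thinning the shares over all cells were 1.69% and 1.30% against 7.45% and 1.71%. In neutrophil-like cells the thinned share was 0.806% (1 of 124) and 0 of 29 (3 counts of 29 would be 10.3%, and the exact binomial interval ends at 11.9%), against 4.41% (6 of 136) and 6.38% (6 of 94). In B-like cells, the largest class, it was 0.175% and 0.0700% against 0.403% and 0.260%. Isg15 and the other core members can also reach a cell as free RNA, whose part in these shares was not tested.

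**Figure D5:**
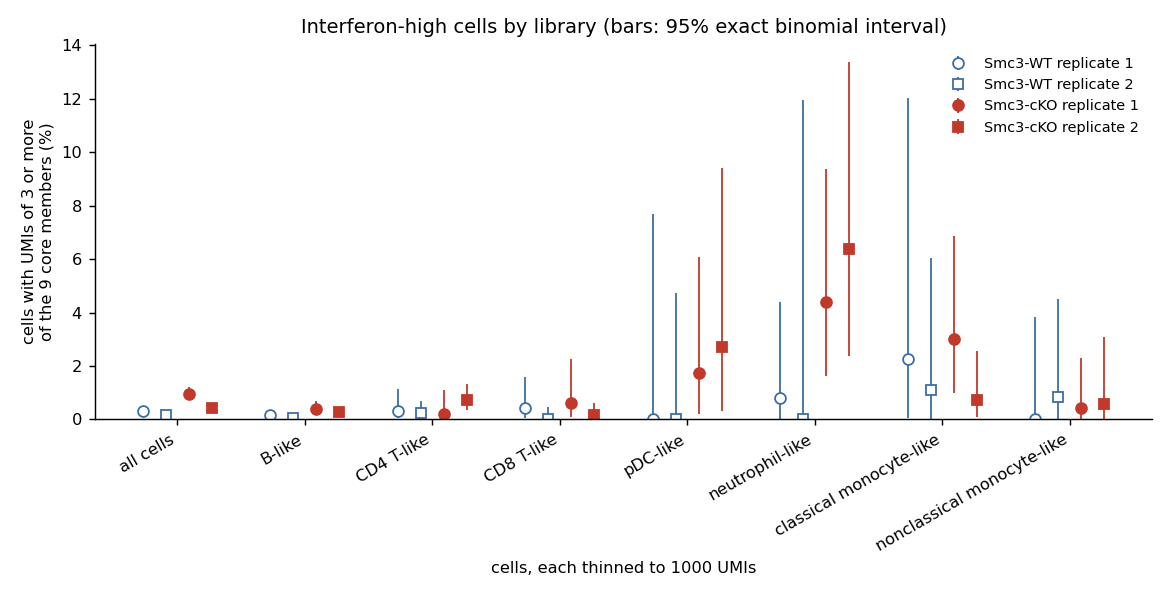
Percent of cells with UMIs of 3 or more of the 9 core members (vertical axis) by class, each cell thinned to 1000 UMIs, 1 symbol per library (open blue, Smc3-WT; filled red, Smc3-cKO; circles, replicate 1; squares, replicate 2) with 95% exact binomial intervals, which cover counting error only. Over all cells the Smc3-WT shares are 0.304% and 0.162%, those of Smc3-cKO are 0.946% and 0.418%, and the intervals of the neutrophil-like and pDC-like classes are wide.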

How the data were processed

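Gene-by-cell UMI counts of 4 splenocyte libraries were deposited as matrices, written by Cell Ranger 7.0.0 per the file headers, on mm10 per the submitters' processing notes. Other steps are not given in the sources used here. Barcodes with 200 or more genes and no more than 10% of UMIs from mitochondrial genes were retained, and doublets called by Scrublet (scanpy 1.11.5) were removed, 126, 798, 289 and 870 cells, or 1.03% to 6.41%. Cells entered a class when at least 3 of its markers were detected and a second lineage reached at most 66.7% of the first, a rule set after the data were seen. Raw UMIs were summed per library and class. Genes passing filterByExpr were tested with edgeR 4.0.16 (TMM, quasi-likelihood F test, genotype only, R 4.3.3), with Benjamini-Hochberg adjustment over all genes of a class at 0.05. The code was tested on simulated counts. DESeq2 1.42.0 was an alternative. Values were given per library for the 3 highest members and the largest estimate in each direction in the DC, monocyte, B and CD4 T classes. The members and lists were chosen with earlier results of these data known. Promoter sequences are from RefSeq (GRCm38.p6). One gene of the pathway list is not reported here.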

Additional observations from a re-analysis of the deposited data

Results flagged for a closer look

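Slfn1 drew attention because its genotype effect differed between classes by a test of the difference itself: the log2 change in cDC2-like cells exceeded that in B-like cells by 3.04 (SE 0.87, quasi-likelihood test of edgeR, Benjamini-Hochberg adjusted p = 0.0449). It was 1 of 39 members tested there, beside 1.02% of all genes, so the members' share is near the background. Its adjusted p was 0.0526 without the filter on low counts and 0.122 with stricter gates, and the cDC2-like values rest on 2 and 3 against 27 and 14 UMIs.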

How the results depend on the processing

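With 28 to 286 cells per library in the DC and monocyte classes, some named values rest on 0 to 5 UMIs. The 0 calls among members became 9 of 474 without the filter on low counts (all genes 0.459%), 3 with the replicate block (all genes 0.185%; Rsad2, Slfn1 and Slfn5 in nonclassical monocyte-like cells), and 1 to 13 with a library left out (9 and 13 on leaving out replicate 1 or 2 of Smc3-WT, 1 on leaving out replicate 1 or 2 of Smc3-cKO). A crossed pairing of the replicate numbers, chosen after seeing the data, gave 1 (all genes 0.103%). The labels do not say that a replicate number pairs libraries. With at most 5% mitochondrial UMIs per cell, 0 of 211 member tests were called (all genes 0.0189%) and the members' median was 0.29. The cDC2-like, pDC-like, classical monocyte-like and red pulp macrophage-like classes then held fewer than 20 cells in a library and were not fitted. The NK-like median was then -0.13, against 0.04 with the main filter. The 1 call between classes, for cDC2-like against B-like cells, became 0 without the filter (112 of 21446 genes called there). It was also 0 with stricter gates (64 of 12719 genes). The count also fell or rose with a library left out, depending on which, and a genotype then keeps a lone library. The difference in interferon-high share, 0.449 percentage points, was 1.17 when thinned to 2000 UMIs and 3.08 unthinned, and 0.350 without erythroid-gated cells (chosen after seeing the data). Of 412 alternative values for 34 named log2 changes, 397 kept their direction. Rsad2 in CD4 T-like cells was 0.0552 with stricter gates and 0.0360 in clusters, and -2.03 to 0.92 with a library left out. The other reversals came with a library left out: Trim30a in cDC1-like (-0.32 to 0.43) and classical monocyte-like cells (-0.0614 to 0.44), Phf11b in cDC1-like cells (-1.30 to 0.39), Ifi27l2a in pDC-like (-0.20 to 0.87), classical monocyte-like (-0.13 to 3.25) and CD4 T-like cells (-0.0406 to 1.40), Stat2 in pDC-like cells (-0.64 to 0.12), and Ifi209 (-0.0743 to 0.24) and Ifi44 in B-like cells (-0.74 to 2.59). The cause was not tested.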

Other observations

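Mature cDC-like cells entered no test of their own because at least 1 library held fewer than 20 of them. Their highest member was Herc6, and the members summed to 1701 and 1658 CPM (Smc3-WT) against 1218 and 1390 CPM (Smc3-cKO), from 49, 28, 13 and 10 cells.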
